A study of Mus musculus with 6 samples.

Results

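The genes described are 33 components of the meiosis and piRNA programmes of germ cells, followed through 6 RNA-seq libraries of a mouse spermatogonial cell line. They were chosen by symbol, as the rows of the deposited gene table named Meioc, Meiosin, Rec8, Rad21l, Smc1b, Stag3, Hormad1, Hormad2, Sycp1, Sycp2, Sycp3, Syce1, Syce2, Syce3, Tex12, Spo11, Mei1, Mei4, Prdm9, Dmc1, Meiob, Spata22, Tex15, Msh4, Msh5, Mlh3, Tex11, Mael, Piwil1, Piwil2, Hspa2, Ccna1 and Tex101. All 33 symbols were found, each on 1 row, among 57180 rows in all. The rule uses names alone and no measured value.

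The study compared 3 libraries labelled Ov_SNHG1 (genotype label "SNHG1 Overexpression") with 3 labelled Vector (genotype label "Vector Control"), all from GC-1 spg, an immortalised line derived from mouse testis that the labels call germ cells. Cells were taken 24 h after transfection, and poly(A) RNA was sequenced from stranded paired-end libraries. All 6 libraries, controls included, also carry the treatment label "Non-obstructive azoospermia", a human diagnosis that the labels do not explain for a cell line. No label gives the sequence or species of the transfected SNHG1 construct. Nothing says whether the 3 libraries of a group came from separate cultures either, so a p-value here weighs a difference only against library-to-library spread that may be technical.

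The libraries held 19204858 to 21058425 counts in the Ov_SNHG1 group and 15521900 to 21095427 in the Vector group, so that 1 count was worth 0.0474 to 0.0644 CPM, the level after scaling each library to the same total. Snhg1 itself, the mouse gene of the long noncoding RNA named on the labels, had 467, 555 and 487 counts in the libraries labelled Ov_SNHG1, against 464, 402 and 385 in the Vector libraries. The groups overlapped on the CPM scale, with a log2 fold change of 0.14 ± 0.10 (SE) and a Benjamini-Hochberg adjusted p of 0.52 in edgeR's quasi-likelihood test. The count table therefore does not show the overexpression that the label names; whether a construct transcript would be counted on this row was not tested. Ov_SNHG1 below stands for the libraries so labelled. Within groups, chi-square per degree of freedom between library pairs was 11.6 to 18.3, with the highest values, 17.6 and 18.3, for pairs that hold Ov_SNHG1 replicate 1. Of 20 markers of spermatogonia, 9 had no count in any library, among them Zbtb16, Kit, Sall4 and the germ cell helicase Ddx4, and Dazl had 2 counts in all. Gfra1, Etv5, Upp1 and Foxo1 of the same list had 252, 347, 708 and 9985 counts over the 6 libraries. Only these 4 of the 20 had enough counts for edgeR's test, and 16 did not.

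Meiosis pairs and recombines homologous chromosomes: meiotic cohesins and HORMA proteins build a chromosome axis, the synaptonemal complex joins the axes, and programmed DNA breaks are repaired by strand exchange into crossovers. In the male germ line, PIWI proteins loaded with piRNAs keep transposons silent over the same period. In cells outside the germ line many of these genes are kept off through DNA methylation of CpG-rich promoters. Repressor complexes that hold MGA and MAX, which bind E-boxes, together with E2F6 and PCGF6 also keep such genes off.

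The bases before the start of each gene are the stretch on which that background bears, and windows of 250 bases from RefSeq (GRCm38.p6) were read for 27 of the 33 genes; there was no entry for Meiosin, Spo11, Meiob, Tex15, Tex11 or Piwil2. These 6 windows are printed 5′ to 3′ on the strand of the gene to set silent genes with both motifs beside genes with counts. Capitals mark the E-box CACGTG, which reads the same on both strands, and the E2F6-type motif GCGGGA or its reverse complement TCCCGC. The windows are Mael at chr1:166238745-166238994 (minus strand), Hormad1 at chr3:95559427-95559676 (plus), Sycp3 at chr10:88459337-88459586 (plus), Sycp2 at chr2:178407659-178407908 (minus), Prdm9 at chr17:15563332-15563581 (minus) and Msh5 at chr17:35046623-35046872 (minus). Hormad1 and Prdm9 each have another listed start, with windows at chr3:95559429-95559678 and chr17:15564355-15564604 that are not printed. The printed Prdm9 window lies downstream of the other Prdm9 start. The Prdm9 window not printed also held the GCGGGA motif and no E-box, with 13 CpG pairs against 9 in the printed one.
Mael: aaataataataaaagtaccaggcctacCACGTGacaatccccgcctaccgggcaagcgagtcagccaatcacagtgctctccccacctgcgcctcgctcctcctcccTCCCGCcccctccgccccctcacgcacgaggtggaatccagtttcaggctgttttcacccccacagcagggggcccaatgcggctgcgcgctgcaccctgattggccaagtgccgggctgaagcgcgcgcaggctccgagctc
Hormad1: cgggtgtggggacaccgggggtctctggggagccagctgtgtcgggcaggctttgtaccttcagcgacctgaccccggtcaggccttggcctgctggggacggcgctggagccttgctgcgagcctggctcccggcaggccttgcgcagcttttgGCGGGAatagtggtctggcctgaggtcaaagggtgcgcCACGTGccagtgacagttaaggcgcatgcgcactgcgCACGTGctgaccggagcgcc
Sycp3: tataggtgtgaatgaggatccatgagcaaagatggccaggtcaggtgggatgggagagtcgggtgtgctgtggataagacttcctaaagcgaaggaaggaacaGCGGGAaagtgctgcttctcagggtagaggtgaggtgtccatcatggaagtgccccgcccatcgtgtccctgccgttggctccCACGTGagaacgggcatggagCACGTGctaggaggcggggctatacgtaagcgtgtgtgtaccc
Sycp2: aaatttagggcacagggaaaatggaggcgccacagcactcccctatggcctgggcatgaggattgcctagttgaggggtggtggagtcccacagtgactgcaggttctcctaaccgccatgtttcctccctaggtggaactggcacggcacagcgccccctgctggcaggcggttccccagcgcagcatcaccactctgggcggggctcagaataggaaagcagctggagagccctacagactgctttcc
Prdm9: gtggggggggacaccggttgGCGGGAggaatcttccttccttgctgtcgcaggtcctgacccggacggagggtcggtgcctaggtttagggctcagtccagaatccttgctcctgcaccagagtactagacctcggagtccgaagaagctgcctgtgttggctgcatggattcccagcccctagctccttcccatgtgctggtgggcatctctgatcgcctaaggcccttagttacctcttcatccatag
Msh5: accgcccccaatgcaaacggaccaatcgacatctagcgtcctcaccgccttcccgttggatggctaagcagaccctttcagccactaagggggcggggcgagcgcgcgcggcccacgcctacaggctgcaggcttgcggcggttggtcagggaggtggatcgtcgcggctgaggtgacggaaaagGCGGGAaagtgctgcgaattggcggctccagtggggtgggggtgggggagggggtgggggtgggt

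Mael, a piRNA factor, and Hormad1, an axis protein, held both motifs and had no count in any library. Sycp3, an axis component with 26 counts over the 6 libraries, also held both, with the E-box present at 2 places, as in Hormad1. Prdm9 and Msh5, with 1473 and 263 counts, held the GCGGGA motif and no E-box, and Sycp2, with 105 counts, held neither.

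An E-box stood before 8 of the 27 genes (29.6%), against 6.86% of all 27025 genes with a RefSeq window and 8.21% of 15537 protein-coding ones. The 27025 were not matched to the rows of the deposited gene table, while the 15537 were. The GCGGGA motif stood before 12 of 27 (44.4%), against 18.8% of all genes and 26.4% of protein-coding genes. Both stood before 5 of 27 (18.5%), namely Mael, Hormad1, Syce2, Tex12 and Sycp3, against 1.98% and 2.93%. No 2 motif matches overlapped in these windows. The windows of the 27 genes held a median of 16 CpG pairs, against 6 for all genes and 12 for protein-coding genes, and 23 of 27 (85.2%) held at least 10, against 40.2% and 58.3%. CpG content did not sort the genes by their counts: the median was 15 for 12 genes with no count, 14.5 for 10 genes with a few counts and 16 for 5 genes with enough counts to test. An E-box was found before 4 of those 12, 4 of those 10 and 0 of those 5, and the GCGGGA motif before 4 of those 12, 6 of those 10 and 2 of those 5. These are descriptions of letters in 250 bases, with no test, and a match is not a bound site.

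**Figure D1:**
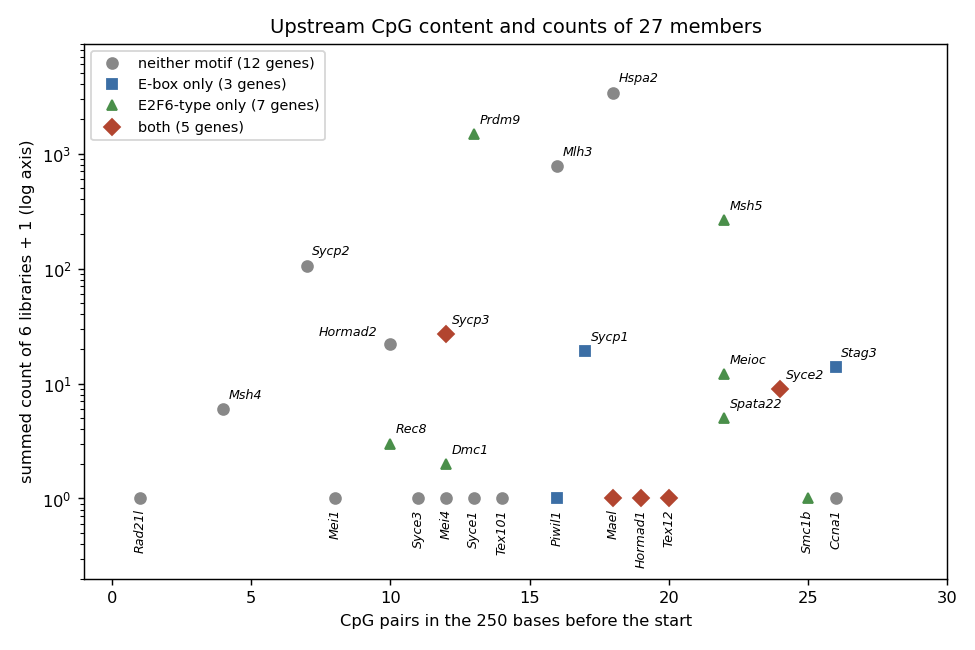
Number of CpG pairs in the 250 bases before the start (x axis) against the summed count of 6 libraries plus 1 (y axis, log scale) for 27 genes, with the marker showing which motifs the window held; where a gene has several starts, the highest number is drawn. Genes with no count lie along the bottom from 1 to 26 CpG pairs, and none of the 5 tested genes carries an E-box marker.

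Most of the programme was at or near the detection limit. Of the 33 genes, 20 had a count in at least 1 library (60.6%), 9 had a count in all 6 (27.3%) and 13 had none (39.4%), where the same shares of 21608 protein-coding genes were 68.6%, 56.4% and 31.4%. By library, 14, 16 and 17 of the 33 genes had a count in Ov_SNHG1, against 14, 13 and 15 in Vector. At least 10 counts were reached by 6, 5 and 6 genes in Ov_SNHG1 and by 6 genes in each Vector library. A count of 0 allows a level of up to 0.142 to 0.193 CPM, depending on the library (3 counts, counting error only). In a bulk culture, fewer cells that use a gene and less RNA in each cell cannot be told apart.

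Hspa2 alone gave 55.7%, 51.5% and 51.4% of the summed CPM of the 33 genes in Ov_SNHG1, against 48.3%, 51.6% and 56.1% in Vector. The summed level of all 33 was 57.7, 53.7 and 52.8 CPM in Ov_SNHG1 and 60.3, 58.0 and 57.3 CPM in Vector. Without Hspa2 the sums were 25.5, 26.0 and 25.7 CPM in Ov_SNHG1, against 31.2, 28.1 and 25.2 CPM in Vector, so the groups overlapped.

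**Figure D2:**
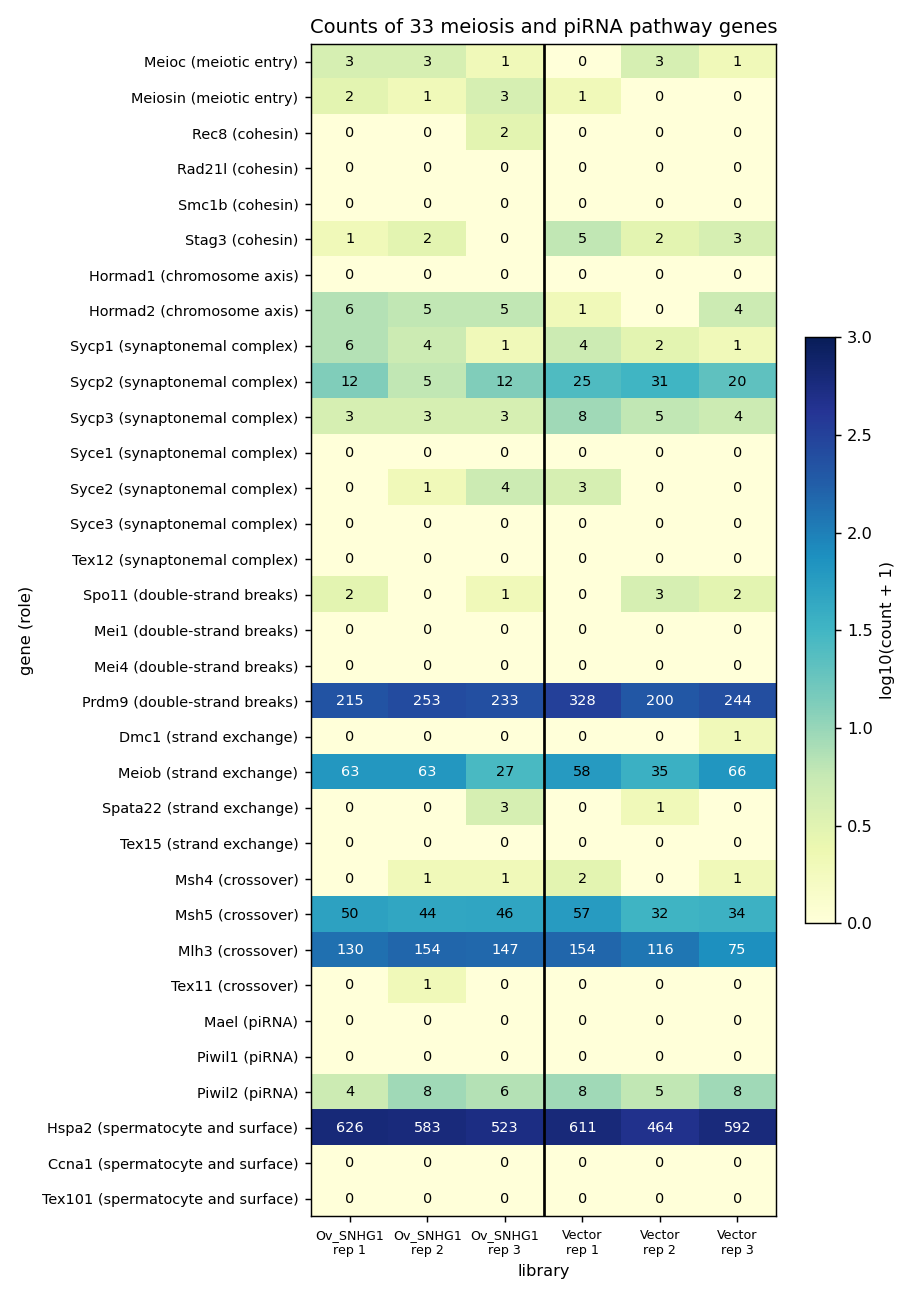
Deposited count of each of the 33 genes (rows, with role) in each of the 6 libraries (columns, Ov_SNHG1 left of Vector), with color on the log10(count + 1) scale. Counts above 100 in every library are seen for Prdm9 and Hspa2 alone, and 13 rows are 0 throughout.

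The factors that start meiosis were barely counted. Meioc, which with YTHDC2 sustains the meiotic prophase programme, had 3, 3 and 1 counts in Ov_SNHG1, against 0, 3 and 1 in Vector. Meiosin, the partner of STRA8 in switching on meiotic genes, had 2, 1 and 3 counts in Ov_SNHG1 and 1, 0 and 0 in Vector. Neither gene separated the groups, although for Meiosin the closest libraries were Ov_SNHG1 replicate 2 at 0.0475 CPM and Vector replicate 1 at 0.0476 CPM. Stra8 had 1 count in all.

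The cohesin subunits specific to meiosis were likewise near 0. Rec8, a meiotic kleisin, had 0, 0 and 2 counts in Ov_SNHG1 and 0 in all Vector libraries, while the other meiotic kleisin Rad21l and the core subunit Smc1b had none in any library. Stag3, the meiotic STAG subunit, had 1, 2 and 0 counts in Ov_SNHG1, against 5, 2 and 3 in Vector, which put the 3 Vector libraries above the 3 Ov_SNHG1 libraries on the CPM scale. Of the axis proteins that load on these cohesins, Hormad1 had no count. Hormad2 had 6, 5 and 5 counts in Ov_SNHG1, against 1, 0 and 4 in Vector, the only gene of the 33 with every Ov_SNHG1 library above every Vector library.

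Of the synaptonemal complex genes, Sycp2 had 105 counts over the 6 libraries, against 26 for Sycp3, 18 for Sycp1 and 8 for Syce2. Sycp2, which forms the axial elements with SYCP3, had 12, 5 and 12 counts in Ov_SNHG1, against 25, 31 and 20 in Vector, and every Ov_SNHG1 library was below every Vector library. Sycp3 had 3 counts in each Ov_SNHG1 library, against 8, 5 and 4 in Vector, again with no overlap on the CPM scale. Sycp1, the transverse filament, had 6, 4 and 1 counts in Ov_SNHG1 and 4, 2 and 1 in Vector. Among the central element proteins, Syce2 had 0, 1 and 4 counts in Ov_SNHG1 and 3, 0 and 0 in Vector, and Syce1, Syce3 and Tex12 had none. Sycp3 and Syce2 overlap, on the opposite strand in GENCODE M21, the genes Chpt1 and Gcdh, which had 2213 and 2482 counts over the 6 libraries. No source used here states whether counting took strand into account, and without strand their reads could fall on these rows. Tex12 overlaps Il18 in the same way, which had 1464 counts, and Tex12 had none.

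Among the genes that place and make the DNA breaks, only Prdm9 was well counted. Prdm9 encodes the histone methyltransferase with a zinc finger array that sets recombination hotspots in mice, and it had 215, 253 and 233 counts in Ov_SNHG1, against 328, 200 and 244 in Vector. Spo11, the enzyme that makes the breaks, had 2, 0 and 1 counts in Ov_SNHG1 and 0, 3 and 2 in Vector, and the break factors Mei1 and Mei4 had none. The hotspot gene was thus present in a line with next to no transcript of the break enzyme.

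Of the strand exchange genes chosen by symbol, Meiob alone was well counted. It was not alone in this step, since Psmc3ip and Mnd1 of the wider meiosis list below also assist strand exchange. They had 1793 and 496 counts over the 6 libraries, with means of 5.13 and 4.91 FPKM, against 1.02 FPKM for Meiob. Meiob, which binds single-stranded DNA and is needed in mice to complete repair, had 63, 63 and 27 counts in Ov_SNHG1, against 58, 35 and 66 in Vector. Its partner Spata22 had 0, 0 and 3 counts in Ov_SNHG1 and 0, 1 and 0 in Vector. Dmc1, the meiotic recombinase, had 1 count, in Vector replicate 3, and Tex15, needed for recombinase loading in mouse spermatocytes, had none.

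Of the 4 crossover factors, Mlh3 and Msh5 were well counted and Msh4 and Tex11 hardly at all. Mlh3, a MutL protein of crossover resolution and mismatch repair, had 130, 154 and 147 counts in Ov_SNHG1, against 154, 116 and 75 in Vector. Msh5, which works as a dimer with MSH4 to stabilise recombination intermediates, had 50, 44 and 46 counts in Ov_SNHG1, against 57, 32 and 34 in Vector. The dimer partner Msh4 had 0, 1 and 1 counts in Ov_SNHG1 and 2, 0 and 1 in Vector, and the X-linked crossover gene Tex11 had 1 count, in Ov_SNHG1 replicate 2.

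Of the piRNA genes, Piwil2 (MILI, the PIWI protein of fetal and early postnatal germ cells) had 4, 8 and 6 counts in Ov_SNHG1, against 8, 5 and 8 in Vector. Piwil1 (MIWI, the PIWI protein of later spermatocytes and spermatids) and Mael had no count. Of the spermatocyte and surface genes, Hspa2, an HSP70 chaperone needed by mouse spermatocytes, had 626, 583 and 523 counts in Ov_SNHG1, against 611, 464 and 592 in Vector. Cyclin A1 (Ccna1) and the germ cell surface glycoprotein Tex101 had none.

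Levels were compared between genes over all 6 libraries by the deposited FPKM, which scales for transcript length and depth. Hspa2 averaged 5.87 FPKM (5.39 to 6.36 over the 6 libraries), Prdm9 2.21 FPKM (1.90 to 2.68), Meiob 1.02 FPKM (0.531 to 1.35) and Mlh3 0.643 FPKM (0.387 to 0.730). Msh5 averaged 0.255 FPKM (0.206 to 0.302) and Sycp2 0.147 FPKM (0.0364 to 0.306). The ranges of Meiob and Mlh3 overlapped, as did those of Msh5 and Sycp2, and the other neighbours in this order did not. The order was the same for 6 of 6 genes per kilobase of GENCODE M21 exons. The level of Hspa2 depends on the length used: the deposited counts and FPKM imply 5050 bases for a gene that spans 2763, and such an excess was found for 16.0% of tested rows.

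Beside their relatives used in mitosis or in other cells, the counted genes were low. Pms2 averaged 1.92 times the mean FPKM of Mlh3, Msh6 120 times that of Msh5, the RPA subunit Rpa1 31.8 times that of Meiob and the chaperone Hspa8 20.2 times that of Hspa2. The mitotic cohesins Rad21, Smc1a and Stag2 spanned 98.6 to 107, 64.9 to 69.5 and 14.3 to 18.9 FPKM, where Rec8, Rad21l, Smc1b and Stag3 were at or near 0. Cyclin A2 (Ccna2) spanned 18.0 to 21.8 FPKM where Ccna1 had no count. Argonaute 2 (Ago2), a relative of the PIWI proteins, spanned 16.6 to 18.1 FPKM.

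**Figure D3:**
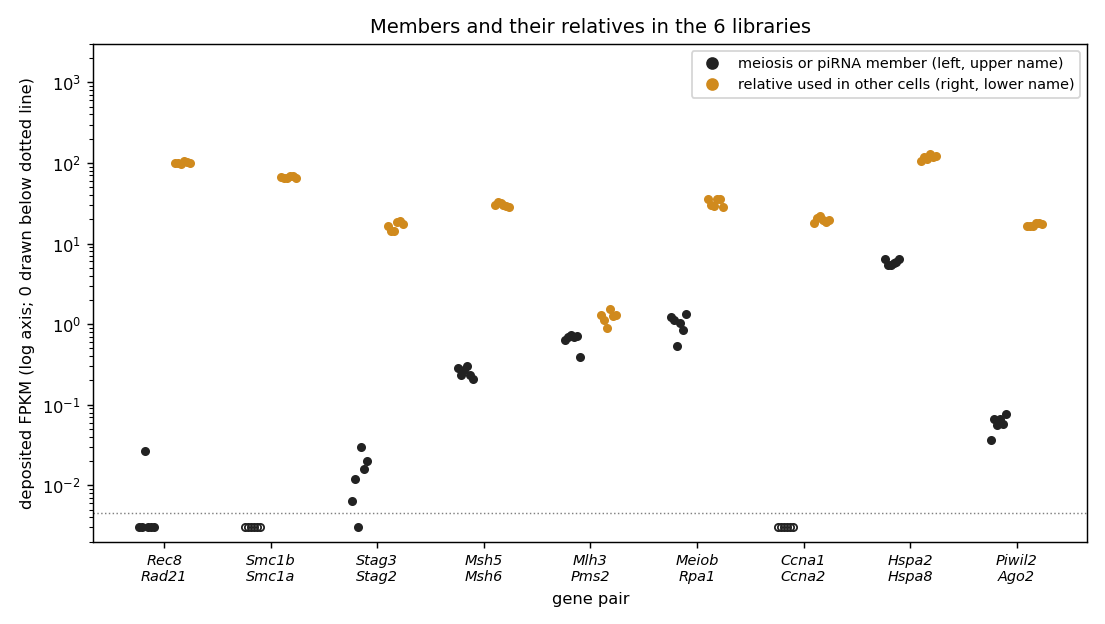
Deposited FPKM (log axis) in each of the 6 libraries for 9 genes of the meiosis or piRNA programme (left, upper name) and a relative used in other cells (right, lower name); values of 0 are drawn under the dotted line. Every relative lies above its meiotic or piRNA member, and the pair with the smallest gap is Mlh3 and Pms2.

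Whether the 33 genes differed between libraries labelled Ov_SNHG1 and Vector libraries was tested with edgeR on all genes that passed its filter on low counts, 14605 rows. None of the 6 members that passed was called at an adjusted p under 0.05, where 2.4% of all tested genes were (350 genes, with 225 or 1.54% higher and 125 or 0.856% lower in Ov_SNHG1). At an unadjusted p under 0.05 edgeR gave 1 of the 6, Sycp2, where 17.0% of all tested genes passed. DESeq2, which called 5.4% of the genes it tested, called none of the 33 but gave no adjusted p for Sycp2. The 27 genes outside the test had too few counts, and passing depends on the group where a gene is higher, so the 6 are not a sample of the 33. Over the 6, the median log2 fold change was −0.12, beside 0.007 over all tested genes, and it was 0.02 without Ov_SNHG1 replicate 3.

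Sycp2 (ENSMUSG00000060445, chromosome 2, 177987086 to 178049478 in the deposited coordinates, for which no build is named) showed the widest difference of the 6. It had 0.617, 0.238 and 0.623 CPM in Ov_SNHG1, against 1.19, 2.00 and 1.09 CPM in Vector. The means were 0.492 ± 0.221 CPM in Ov_SNHG1 and 1.43 ± 0.501 CPM in Vector (SD, n = 3 each), and no Ov_SNHG1 library reached the lowest Vector library. The log2 fold change was −1.52 ± 0.41 (SE; 95% interval −2.47 to −0.56) in edgeR's quasi-likelihood test, with a Benjamini-Hochberg adjusted p of 0.12, which misses the threshold; its unadjusted value was 0.00647. Without Ov_SNHG1 replicate 1, the library that stood farthest from its group, the adjusted p was 0.0989 in edgeR's test. Over 14 other settings the log2 fold change ran from −1.72 to −1.17. The adjusted p, which DESeq2 did not give, ran from 0.0989 to 0.305. The gene rests on 29 counts in Ov_SNHG1 and 76 in Vector.

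Prdm9 (ENSMUSG00000051977, chromosome 17, 15763341 to 15784616) had 11.0, 12.0 and 12.1 CPM in Ov_SNHG1, against 15.6, 12.9 and 13.2 CPM in Vector. The groups did not overlap, with means of 11.7 ± 0.584 CPM in Ov_SNHG1 and 13.9 ± 1.48 CPM in Vector (SD, n = 3 each). The log2 fold change was −0.25 ± 0.11 (95% interval −0.51 to 0.01), with an adjusted p of 0.303 in edgeR's test. Like Sycp2, Prdm9 had every Ov_SNHG1 library below every Vector library, as did 12.3% of all 14605 tested genes. In either direction, 23.7% of all tested genes showed no overlap.

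For the other 4 genes the groups overlapped. Hspa2 (chromosome 12, 76450950 to 76453712) averaged 29.0 ± 2.75 CPM in Ov_SNHG1 and 30.4 ± 1.56 CPM in Vector, a log2 fold change of −0.07 ± 0.09 with an interval of −0.27 to 0.14 that bounds the difference more tightly than for any other member. Mlh3 (chromosome 12, 85281294 to 85317373) averaged 7.21 ± 0.484 CPM in Ov_SNHG1 and 6.30 ± 1.93 CPM in Vector, where replicate 3 stood at 4.07 CPM and the others at 7.34 and 7.49 CPM. Its log2 fold change was 0.20 ± 0.22, and −0.04 without that library. Meiob (chromosome 17, 25023263 to 25058762) averaged 2.54 ± 0.997 CPM in Ov_SNHG1 and 2.87 ± 0.668 CPM in Vector, with replicate 3 of Ov_SNHG1 at 1.40 CPM and the others of that group at 3.24 and 2.99 CPM. The log2 fold change of Meiob was −0.18 ± 0.32, and 0.11 without that library. Msh5 (chromosome 17, 35247581 to 35265721) averaged 2.35 ± 0.242 CPM in Ov_SNHG1 and 2.21 ± 0.453 CPM in Vector, a log2 fold change of 0.08 ± 0.21 that was −0.04 without Vector replicate 3. The adjusted p values of these 4 genes in edgeR's test lay between 0.687 and 0.877. Intervals of −0.32 to 0.71 for Mlh3, −0.91 to 0.56 for Meiob and −0.40 to 0.56 for Msh5 include differences of those sizes in either direction.

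**Figure D4:**
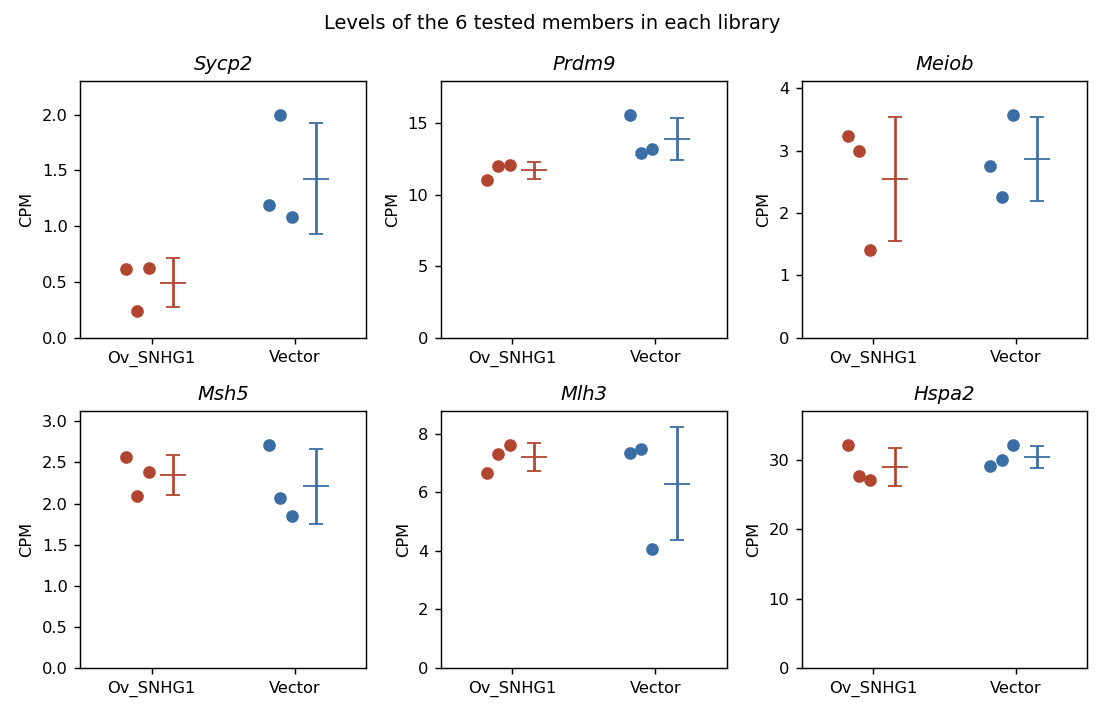
Level in CPM of the 6 tested genes in each library (points; Ov_SNHG1 left, Vector right), with mean and SD (bars, n = 3 each) and a y axis from 0. Points of the groups are apart for Sycp2 and Prdm9 and overlap for Meiob, Msh5, Mlh3 and Hspa2.

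Among the 20 genes with a count, the groups did not overlap on the CPM scale for 5 of them, Hormad2 higher and Sycp2, Sycp3, Stag3 and Prdm9 lower in Ov_SNHG1, where 16.1% of all genes with a count showed no overlap. Each of the 5 had an exact two-sided permutation p of 0.1, the smallest that 3 against 3 libraries can give. Groups that do not overlap always give this value, so it adds nothing to the separation. Among the 14 genes with a count too low to test, the groups did not overlap for 3, 1 higher and 2 lower. Of all 11178 such genes in the table, 6.23% showed no overlap. When edgeR was run with no filter, Sycp3, Stag3 and Hormad2 had adjusted p values of 0.525, 0.529 and 0.55. The 27 genes outside the test summed to 27, 29 and 30 counts in Ov_SNHG1, against 32, 21 and 25 in Vector, and to overlapping levels of 1.38 to 1.56 CPM in Ov_SNHG1 and 1.36 to 1.52 CPM in Vector.

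Summed levels of markers of other cell types differed between the groups for 2 lists, in each case through a few genes, and their part in the values above was not tested. The summed level of 11 peritubular and fibroblast markers (9 with a count) was 19351 to 20113 CPM in Ov_SNHG1 and 22834 to 24246 CPM in Vector, mostly from the collagen genes Col1a2 and Col1a1. Col1a2 averaged 13175 ± 96.8 CPM in Ov_SNHG1 and 16173 ± 455 CPM in Vector (SD, n = 3 each) and was called lower. Col1a1, at 4511 ± 275 CPM in Ov_SNHG1 and 5165 ± 241 CPM in Vector, had every Ov_SNHG1 library below every Vector library. So did Vim, at 1766 ± 39.4 CPM in Ov_SNHG1 and 2027 ± 65.3 CPM in Vector. Neither was called, with adjusted p values of 0.150 and 0.0769 in edgeR's test. Pdgfra was called higher, and Des, at 2.63 ± 0.185 CPM in Ov_SNHG1 and 2.26 ± 0.615 CPM in Vector, overlapped. The sum of 9 macrophage and blood markers (8 with a count) was 41.9 to 48.2 CPM in Ov_SNHG1 and 33.7 to 34.6 CPM in Vector, and its members did not go one way. Cd14, at 24.4 ± 2.10 CPM in Ov_SNHG1 and 14.4 ± 0.632 CPM in Vector, was called higher. Cd68, at 3.83 ± 0.188 CPM in Ov_SNHG1 and 2.47 ± 0.274 CPM in Vector, had every Ov_SNHG1 library above every Vector library. It was not called, with an adjusted p of 0.0904 in edgeR's test. Lyz2 stood at 15.3 ± 1.17 CPM in Ov_SNHG1 and 15.4 ± 1.16 CPM in Vector. Csf1r, at 1.04 ± 0.0965 CPM in Ov_SNHG1 and 1.43 ± 0.0824 CPM in Vector, and Adgre1, at 0.168 ± 0.0796 CPM in Ov_SNHG1 and 0.336 ± 0.1002 CPM in Vector, had every Ov_SNHG1 library below every Vector library. The 20 spermatogonial markers summed to 89.0 to 102 CPM in Ov_SNHG1 and 98.3 to 104 CPM in Vector, mostly from Foxo1, and the 12 spermatid markers, 9 of them at 0 throughout, to 0.156 to 0.462 CPM in Ov_SNHG1 and 0.271 to 0.710 CPM in Vector. Sertoli markers summed to 606 to 704 CPM in Ov_SNHG1 and 582 to 617 CPM in Vector, mostly from Rhox5, and Leydig markers to 2.47 to 3.06 CPM in Ov_SNHG1 and 2.43 to 2.88 CPM in Vector.

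No gene of a wider meiosis list was called either. Of 39 further meiosis genes, 35 had a row, 26 of these had a count, 12 were tested and 0 were called by edgeR or DESeq2 in either direction, with 0 at an unadjusted p under 0.05 in edgeR and a median log2 fold change of −0.01. The highest levels were those of Zcwpw1, the reader of the histone marks that PRDM9 writes, with 13.9 ± 0.615 FPKM in Ov_SNHG1 and 13.7 ± 0.505 FPKM in Vector (SD, n = 3 each). Sun1, which tethers telomeres to the nuclear envelope, averaged 7.42 ± 0.275 FPKM in Ov_SNHG1 and 7.71 ± 0.539 FPKM in Vector. Psmc3ip (HOP2), which with MND1 assists strand exchange, averaged 5.44 ± 0.945 FPKM in Ov_SNHG1 and 4.81 ± 0.521 FPKM in Vector. Their adjusted p values in edgeR's test were 0.912, 0.679 and 0.571.

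Of 25 further piRNA genes, 15 had a count, 5 were tested and 0 were called by edgeR or DESeq2, again with 0 at an unadjusted p under 0.05 in edgeR and a median log2 fold change of −0.02. The germ granule and piRNA loading genes Ddx4, Tdrd1, Tdrd5, Asz1, Mov10l1, Gtsf1 and Fkbp6 had no count in any library. Tdrd7, a Tudor protein also used in the lens, averaged 20.8 ± 1.00 FPKM in Ov_SNHG1 and 21.01 ± 0.688 FPKM in Vector. Tdrkh, the mitochondrial partner of PIWI proteins, averaged 2.94 ± 0.155 FPKM in Ov_SNHG1 and 3.07 ± 0.189 FPKM in Vector. Spocd1, which directs DNA methylation of transposons in mouse germ cells, averaged 0.365 ± 0.057 FPKM in Ov_SNHG1 and 0.284 ± 0.147 FPKM in Vector.

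**Figure D5:**
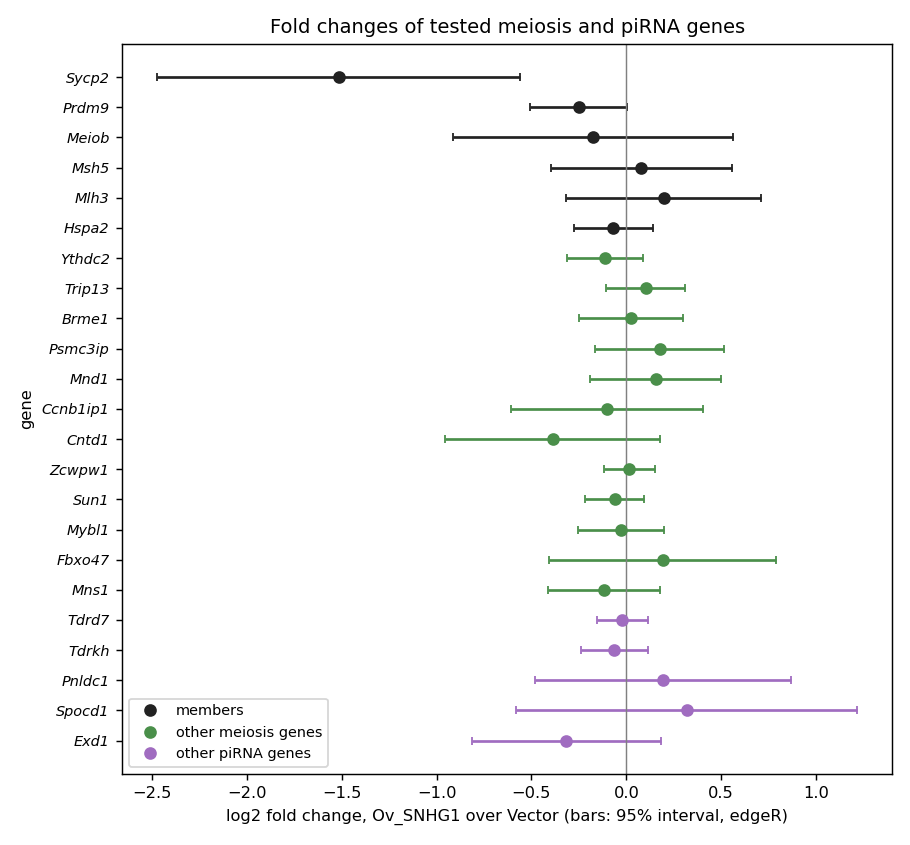
Log2 fold change, Ov_SNHG1 over Vector, with its 95% interval from edgeR (x axis) for the 6 tested genes of the 33 and for the 12 other meiosis and 5 other piRNA genes tested. Sycp2 is the point farthest from 0, at −1.52.

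Nearly all genes of a list known to keep germline genes silent were counted, and none was called. Of 18, 17 were tested, 0 were called by edgeR or DESeq2, 5 had an unadjusted p under 0.05 (17.0% of all tested genes did) and the median log2 fold change was 0.06; E2f6 had 2 counts in all. Uhrf1, which brings DNMT1 to replicated DNA, averaged 46.6 ± 6.41 FPKM in Ov_SNHG1 and 38.1 ± 2.52 FPKM in Vector, a log2 fold change of 0.28 ± 0.10 with an adjusted p of 0.223 in edgeR's test and of 0.0311 without Ov_SNHG1 replicate 1. Dnmt1, the maintenance DNA methyltransferase, averaged 36.4 ± 3.27 FPKM in Ov_SNHG1 and 33.3 ± 1.97 FPKM in Vector (adjusted p of 0.468 in edgeR's test). Kdm5c, a histone demethylase that represses germline genes in mouse neurons, averaged 31.7 ± 0.265 FPKM in Ov_SNHG1 and 29.8 ± 0.955 FPKM in Vector (adjusted p of 0.443 in edgeR's test).

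None of the relatives used in other cells was called, with 0 of 17 by edgeR, 3 at an unadjusted p under 0.05 (beside the same 17.0%) and a median log2 fold change of −0.05. Stag2, the mitotic relative of Stag3, averaged 15.1 ± 1.36 FPKM in Ov_SNHG1 and 18.4 ± 0.673 FPKM in Vector, a log2 fold change of −0.29 ± 0.07 with an adjusted p of 0.105 in edgeR's test. DESeq2 called it with an adjusted p of 0.0252, as did edgeR without Ov_SNHG1 replicate 1, with an adjusted p of 0.0169. Rad21, Smc1a and Hspa8 had log2 fold changes of −0.06, −0.05 and −0.14 with adjusted p values of 0.569, 0.636 and 0.294 in edgeR's test.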

How the data were processed

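The deposited table held, per the file headers, read counts and FPKM of each of the 6 libraries for 57180 rows with mouse Ensembl identifiers, made by the authors. The submitters' processing notes name HISAT2, SAMtools 1.3.1 and StringTie and the human build GRCh38, although the rows are mouse genes; no source used here names the counting tool, whether it used strand, or the genome build behind the deposited coordinates. The FPKM values as deposited were used to compare levels between genes and to give group means of genes outside the 33; every fold change and adjusted p came from the counts.

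Counts were tested in R 4.3.3 with edgeR 4.0.16: TMM scaling, filterByExpr (minimum count 10, about 0.517 CPM in the median library), quasi-likelihood F test on group alone, and Benjamini-Hochberg adjustment over 14605 rows with a threshold of 0.05. CPM values of genes used TMM-scaled totals. DESeq2 1.42.0, limma-voom 3.58.1, other scalings and filters, a replicate block, leaving out each library, and removal of GC and length trends were alternatives. The scripts were tested on simulated data. Exact permutation tests used SciPy 1.17.1 on log2(CPM + 0.1). Promoter windows came from RefSeq, and gene strand and exons from GENCODE M21. Libraries with the same replicate number did not deviate together across groups, and no label states a pairing. Depth was 15521900 to 21095427 counts per library, and the floors for a count of 0 cover counting error only, while edgeR's intervals also hold the spread between libraries.

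The genes and lists were chosen with earlier results of these data known. The text names all 33 genes, Snhg1 and, of each wider list, the 3 with the highest mean FPKM, with the relative of each meiotic gene beside it. Stra8, Mnd1, E2f6, the piRNA genes given at 0 and the low-count genes of the closing section were named after their values were seen. In the wider meiosis list, 4 symbols (Six6os1, Top6bl, Spo16, Speedya) had no row of that name. Some genes counted in the list of relatives are not reported here by name.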

Additional observations from a re-analysis of the deposited data

How the results depend on the processing

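No setting made any of the 33 genes pass the threshold, and Sycp2, Prdm9 and Hspa2 stayed negative in all 14 alternatives tried for each. In DESeq2 the adjusted p of Sycp2 was not given. Over all genes named by the rule, 266 recomputed fold changes kept their direction and side of the threshold, 11 reversed and 3 came past it. Over all genes, 350 calls became 690 with DESeq2, 163 with the replicate block and 123 to 807 when a library was left out (807 without Ov_SNHG1 replicate 1, 123 to 176 without any other). The block changed no call among the 33 genes, and same-numbered libraries did not deviate together (correlations −0.0302 to −0.00409). These values cannot say whether same-numbered libraries were handled together, and no label states it. The lists of relatives and repressors had 0 to 1 calls when a library was left out, the call being Stag2 and Uhrf1, each in its list, without Ov_SNHG1 replicate 1, and DESeq2 gave 1 among the relatives. The median over the tested genes ran from −0.20 to 0.024 when a library was left out. Genes detected in all 6 libraries were 9 with 1 count, 8 with 3 counts and 5 with 10 counts as the minimum. Signs near 0 reversed: without Ov_SNHG1 replicate 3 for Meiob (0.11) and Zcwpw1 (−0.012); without Vector replicate 3 for Meiob (0.0092), Msh5 (−0.042), Mlh3 (−0.044), Zcwpw1 (−0.0077) and Tdrd7 (0.0012); without Vector replicate 2 for Zcwpw1 (−0.00079) and Spocd1 (−0.021); without Ov_SNHG1 replicate 2 for Tdrd7 (0.011); and with GC and length trends removed, an alternative chosen after seeing the data, as was the exon length check, for Tdrkh (0.0058). Leaving out 1 library at a time gave ranges of −0.38 to 0.11 for Meiob, −0.04 to 0.26 for Msh5, −0.04 to 0.33 for Mlh3, −0.01 to 0.045 for Zcwpw1, −0.061 to 0.01 for Tdrd7 and −0.02 to 0.59 for Spocd1. The cause was not tested.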

Other observations

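Among the 25 further meiosis, piRNA and repressor genes with a count too low to test, 4 had every Ov_SNHG1 library above every Vector library and 0 the reverse, beside 6.23% of 11178 genes of the table with a count too low to test that showed no overlap. The 4 are named here after their values were seen. Dnmt3l, the cofactor of de novo DNA methylation in germ cells, had 12, 8 and 11 counts in Ov_SNHG1, against 2, 4 and 0 in Vector. Piwil4 (MIWI2), the nuclear PIWI protein of fetal mouse germ cells, had 10, 9 and 12 counts in Ov_SNHG1, against 7, 3 and 6 in Vector. Tex19.1, needed for transposon control and male fertility in mice, had 2, 7 and 9 counts in Ov_SNHG1 and 0 in every Vector library. Set against a floor of 3 counts over the Vector group, this was 5.53-fold higher, with no allowance for error in the Ov_SNHG1 counts. Prr19, a crossover factor, had 2, 3 and 2 counts in Ov_SNHG1, against 0, 0 and 1 in Vector. With no filter, edgeR gave adjusted p values of 0.289, 0.493, 0.172 and 0.502 for these 4 genes, so none passed.

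Of 121 further protein-coding rows whose deposited description names meiosis, the synaptonemal complex, spermatogenesis, testis expression, PIWI or a Tudor domain, a list made after the data were seen, 72 had no count, 28 were tested and 1 was called by edgeR (3.57%, beside 2.4% of all tested genes). That gene was Spata2, an adaptor of the deubiquitinase CYLD in TNF signalling, with 61.9, 57.6 and 59.3 CPM in Ov_SNHG1, against 46.1, 40.4 and 41.4 CPM in Vector. Its log2 fold change was 0.48 ± 0.07 with an adjusted p of 0.0154 in edgeR's test.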
